A study of Mus musculus with 14 samples.

Results

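The genes described here encode enzymes, membrane proteins and proton pump subunits of the lysosome, together with the transcription factors that act on lysosomal genes. A fixed list of 46 gene symbols defined the set, out of 20207 genes listed for every library. Of these, 44 were found under the listed symbol, and Tfeb and Tfe3 were found under the older symbols Tcfeb and Tcfe3. The filter on low levels, at least 1 CPM in at least 2 of the 10 libraries, was passed by 11177 genes and by 45 of the 46. Levels are given as CPM, the usual depth-normalised read count, after scaling between libraries. The gene below the filter was Manba, encoding beta-mannosidase, which ranged from 0 to 0.72 CPM over the 10 libraries.

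Lysosomes are acidic, membrane-bound organelles that break down proteins, glycans and lipids delivered by endocytosis and autophagy. Their hydrolases work at low pH, which a proton-pumping vacuolar ATPase maintains, while heavily glycosylated membrane proteins line the organelle and carry products out of it. TFEB, TFE3 and MITF are related basic helix-loop-helix factors that bind E-box sequences in the promoters of many lysosomal genes, and p53 is a transcription factor that DNA damage activates.

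RNA came from embryo fibroblasts of 129/Sv mice, wild type or carrying the p53-/- genotype, whose allele the labels do not describe. Cells were either untreated or given doxorubicin, which damages DNA by trapping topoisomerase II, at 0.2 µg/ml for 6 h. There were 3 libraries each of untreated and treated wild-type cells and 2 each of untreated and treated p53-null cells. The design text names the questions: which genes respond to DNA damage in each genotype, and which differ between untreated genotypes. Replicates are numbered without a statement of whether they are separate cultures or embryos, so the p-values cover only how far these libraries vary, which may be technical.

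Wild-type libraries held 9768161 to 11770448 reads over the listed genes and p53-null libraries held 18099506 to 25970157, so depth went with genotype. Reads were sequenced from the 3' end of transcripts, and levels are compared between groups but not between genes. Cdkn1a, the p53 target encoding the cell-cycle inhibitor p21, stood at 559 to 754 CPM in untreated and 4071 to 5095 CPM in treated wild-type libraries, against 29.3 to 53.9 CPM in all p53-null libraries. Trp53, which encodes p53, gave 20.1 to 43.4 CPM in wild-type and 29.5 to 74.2 CPM in p53-null libraries. Untreated p53-null cells were the higher (log2 fold of wild type over p53-null -1.62, adjusted p = 0.00534 by limma), and 3' reads check nothing about a deletion elsewhere in that gene. Summed levels of 12 fibroblast markers ranged from 3275 to 7529 CPM over all libraries, those of 5 endothelial markers did not exceed 4.28 CPM, and those of 4 epithelial markers ranged from 6.28 to 25.5 CPM in wild-type and 14.7 to 37.2 CPM in p53-null libraries.

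Promoters are shown first because a sequence that the list did not use was more frequent in them than in those of other genes. Windows of 250 bases upstream of the gene start, from RefSeq on build GRCm38.p6, were at hand for 40 of the 46 genes and not for Ctsb, Galns, Asah1, Npc1, Laptm4b and Atp6v1h. The E-box CACGTG, which reads the same on either strand, occurred in 14 of the 40 (35%), against 6.86% of 27025 genes with such windows and 10.3% of the 7779 tested genes with them. The longer TCACGTG, searched on both strands and always containing that E-box, occurred in 12 of 40 (30%), against 3.58% of all genes and 5.89% of tested genes. No window of the 40 genes held a match to the p53 response element (a pair of decamers up to 13 bases apart), which 0.0666% of all genes had. So rare a match would be absent from most sets of 40 genes, so its absence says nothing about these. A single such decamer occurred in 5 of 40 (12.5%), against 8.2% of all genes and 7.02% of tested genes. A match is a description of letters and not evidence of a bound site.

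The E-box windows below belong to 4 genes followed through every comparison (Ctsf, Ctsd, Lamp1 and Mcoln1), with the E-box in capitals and each sequence written 5′ to 3′ on the strand of its gene. Ctsd, on the minus strand, has E-boxes at chr7:142388055-142388077 and chr7:142387908-142387937, which begin 245 and 98 bases before its start. Mcoln1, on the plus strand, has a pair at chr8:3500436-3500465 and chr8:3500462-3500491. Lamp1, on the plus strand, has 4, shown from chr8:13159088-13159117 to chr8:13159134-13159160.
Ctsd window a: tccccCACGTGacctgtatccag
Ctsd window b: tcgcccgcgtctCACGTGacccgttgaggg
Mcoln1 window a: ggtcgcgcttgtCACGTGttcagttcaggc
Mcoln1 window b: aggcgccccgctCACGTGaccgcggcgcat
Lamp1 window a: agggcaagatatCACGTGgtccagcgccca
Lamp1 window b: tggtccagcgccCACGTGatgccgactggc
Lamp1 window c: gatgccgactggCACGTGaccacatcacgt
Lamp1 window d: acgtgaccacatCACGTGcggaacgga

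The whole upstream window of Ctsf, the gene with the largest rise of the set, lies at chr19:4854915-4855164 on the plus strand. Its single E-box is flanked by other bases than those of TCACGTG, unlike the E-boxes of Ctsd above.
Ctsf upstream: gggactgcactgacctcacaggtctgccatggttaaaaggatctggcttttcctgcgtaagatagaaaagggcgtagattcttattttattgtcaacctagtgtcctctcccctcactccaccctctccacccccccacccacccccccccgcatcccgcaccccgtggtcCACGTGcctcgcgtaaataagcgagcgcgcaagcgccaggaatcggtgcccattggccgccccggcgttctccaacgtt

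In wild-type fibroblasts doxorubicin raised 11 of the 45 tested lysosomal genes and lowered none past the threshold. They were the protease genes Ctsf, Ctsb, Tpp1 and Ctsd, the glycosidase genes Fuca1 and Man2b1, the membrane protein genes Laptm4a, Laptm4b and Scarb2, the pump subunit gene Atp6v1h and the transcription factor gene Tfeb. None of the 5 sulfatases passed, and none of the 8 genes of lipid enzymes, their activators and sterol carriers, called lipid genes below. Over all 11177 tested genes, 8.03% were called higher and 4.55% lower at an adjusted p of 0.05. The median log2 fold of the 45 genes was 0.27, against 0.05 for all tested genes. Above 0 were 31 of the 45, against 53.2% of all tested genes. At an unadjusted p of 0.05 there were 15, against 26.9% of all tested genes. Treated libraries lay entirely above untreated ones for 16 of the 45 and entirely below for 1, against 17% and 12% of all tested genes. In bulk RNA, fewer cells of a type and less RNA per cell cannot be told apart.

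Ctsf encodes cathepsin F, a cysteine protease. Its level was 4.28, 7.99 and 5.28 CPM in untreated wild-type libraries 1, 2 and 3 and 28.1, 30.9 and 20.2 CPM in treated libraries 1, 2 and 3. Every treated library was above every untreated one, and the lowest treated value was more than the highest untreated value by a wide margin. On the log2 scale Ctsf rose by 2.10 (SE 0.29, 3 libraries in each group, adjusted p = 0.00158 by limma). Ctsb, encoding the cysteine protease cathepsin B, stood at 10.4, 18.2 and 17.5 CPM untreated and 21.9, 55.9 and 49.7 CPM treated. The groups did not overlap, and the libraries numbered 1 were the lowest of each group. Its log2 fold was 1.37 (SE 0.35, adjusted p = 0.0309). Ctsb overlaps Fdft1 in the genome, and without the strand of the reads the 2 genes cannot be separated.

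Ctsd, encoding the aspartic protease cathepsin D, stood at 1382, 1620 and 1688 CPM untreated and 2456, 3686 and 2521 CPM treated. Its groups did not overlap, and the log2 fold was 0.86 (SE 0.22, adjusted p = 0.0273). Tpp1, encoding tripeptidyl peptidase, an enzyme that clips tripeptides from protein ends, stood at 1.9, 1.89 and 1.24 CPM untreated and 3.27, 5.95 and 4.63 CPM treated. These levels rest on 48 untreated and 144 treated reads in all, and the groups did not overlap. The log2 fold of Tpp1 was 1.22 (SE 0.30, adjusted p = 0.0258). The remaining proteases did not pass: Ctsa, Ctsz and Ctsl had mean levels of 430, 500 and 8.23 CPM untreated and 559, 497 and 7.85 CPM treated.

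Among the 10 tested glycosidase genes, Fuca1 had the smallest adjusted p. It encodes the enzyme that removes fucose from glycoproteins, and it stood at 224, 234 and 245 CPM untreated and 627, 642 and 489 CPM treated. The groups were far apart and each was tight, and the log2 fold was 1.31 (SE 0.19, adjusted p = 0.00221). Man2b1, encoding lysosomal alpha-mannosidase, stood at 102, 136 and 135 CPM untreated and 196, 243 and 229 CPM treated. Its groups did not overlap, with a log2 fold of 0.85 (SE 0.22, adjusted p = 0.0313). Across all 10 glycosidase genes the log2 folds ran from -0.44 to 1.31 with a median of 0.05, so the other 8 lay on either side of 0.

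Laptm4a and Laptm4b, which encode related multi-pass proteins of late endosomes and lysosomes, both rose. Laptm4a stood at 15.4, 24.8 and 27.6 CPM untreated and 38.1, 87.6 and 79 CPM treated, and Laptm4b at 2.62, 3.14 and 2.81 CPM untreated and 7.56, 11.4 and 8.33 CPM treated. Treated libraries were above untreated ones for each gene. The log2 folds were 1.53 (SE 0.34, adjusted p = 0.0157) for Laptm4a and 1.50 (SE 0.25, adjusted p = 0.00454) for Laptm4b. Scarb2, encoding the membrane receptor that carries glucocerebrosidase to lysosomes, stood at 43.8, 71.9 and 67.3 CPM untreated and 93.9, 160 and 112 CPM treated. Its groups did not overlap, and the log2 fold was 0.99 (SE 0.26, adjusted p = 0.034).

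The abundant lysosomal membrane glycoprotein gene Lamp1 stood at 24.3, 82.2 and 32.5 CPM untreated and 37.7, 64.2 and 30.7 CPM treated. These ranges overlapped throughout, with a log2 fold of 0.06 (SE 0.47, adjusted p = 0.949). Mcoln1, encoding the calcium channel mucolipin of the lysosomal membrane, stood at 26.7, 21.4 and 20.4 CPM untreated and 28, 42.6 and 26.1 CPM treated. Its log2 fold was 0.47 (SE 0.30, adjusted p = 0.353), and the treated library numbered 3 lay below the highest untreated one.

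Of the transcription factor genes, Tfeb stood at 29.5, 17.8 and 23.9 CPM untreated and 48.4, 51.2 and 36.1 CPM treated. Its groups did not overlap, and the log2 fold of 0.93 (SE 0.27, adjusted p = 0.0493) lay just inside the threshold. Tfe3 stood at 95.1, 109 and 108 CPM untreated and 88.2, 123 and 94.7 CPM treated, with a log2 fold of -0.04 (SE 0.18, adjusted p = 0.912). Mitf was near the floor in wild type, with 8 reads in all untreated and 6 in all treated libraries. Its log2 fold was -0.17 (SE 0.27, adjusted p = 0.738). Atp6v1h, encoding a subunit of the cytosolic sector of the proton pump, rested on 22 untreated and 54 treated reads, at 0.833, 0.629 and 0.899 CPM against 1.87, 1.58 and 1.75 CPM. Its log2 fold was 0.80 (SE 0.23, adjusted p = 0.0491), also close to the threshold.

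The 5 sulfatase genes, whose enzymes strip sulfate from glycosaminoglycans and sulfolipids, had log2 folds from -0.06 to 0.72 with a median of 0.35. The highest was Ids, encoding iduronate sulfatase, at 0.595, 0.449 and 0.562 CPM untreated and 1.31, 0.837 and 1.54 CPM treated, with no overlap but an adjusted p of 0.104. The 8 lipid genes had log2 folds from -0.47 to 0.72 with a median of 0.35. Asah1, encoding acid ceramidase, was the highest of them, at 3.93, 4.67 and 4.16 CPM untreated and 8.12, 9.02 and 5.35 CPM treated, again without overlap (adjusted p = 0.108). The one gene whose treated libraries all lay below the untreated ones was Glb1, encoding beta-galactosidase, at 52.5, 47.1 and 49.6 CPM untreated and 43, 47 and 31.7 CPM treated. The other 3 pump genes, Atp6v0d1, Atp6v1a and Atp6ap1, did not pass.

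**Figure D1:**
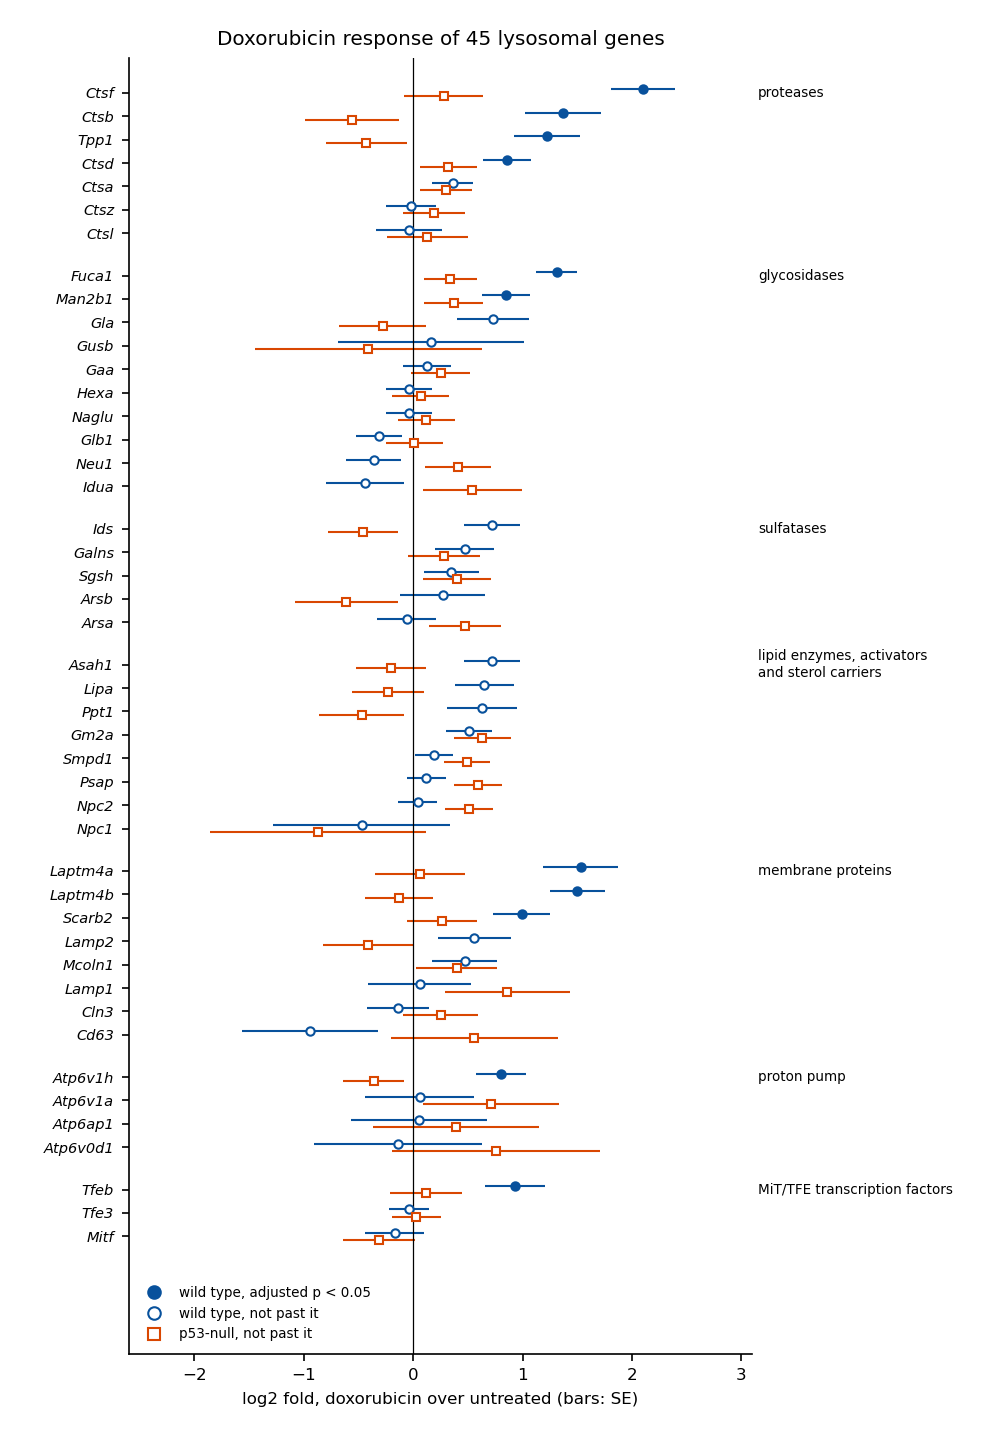
Log2 fold with doxorubicin (x axis, bars are SE) for the 45 tested lysosomal genes, grouped by role, in wild type (circles, 3 libraries against 3) and p53-null cells (squares, 2 against 2). The 11 filled circles are the genes past an adjusted p of 0.05 in wild type, from Atp6v1h at 0.80 to Ctsf at 2.10, and no square is filled.

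**Figure D2:**
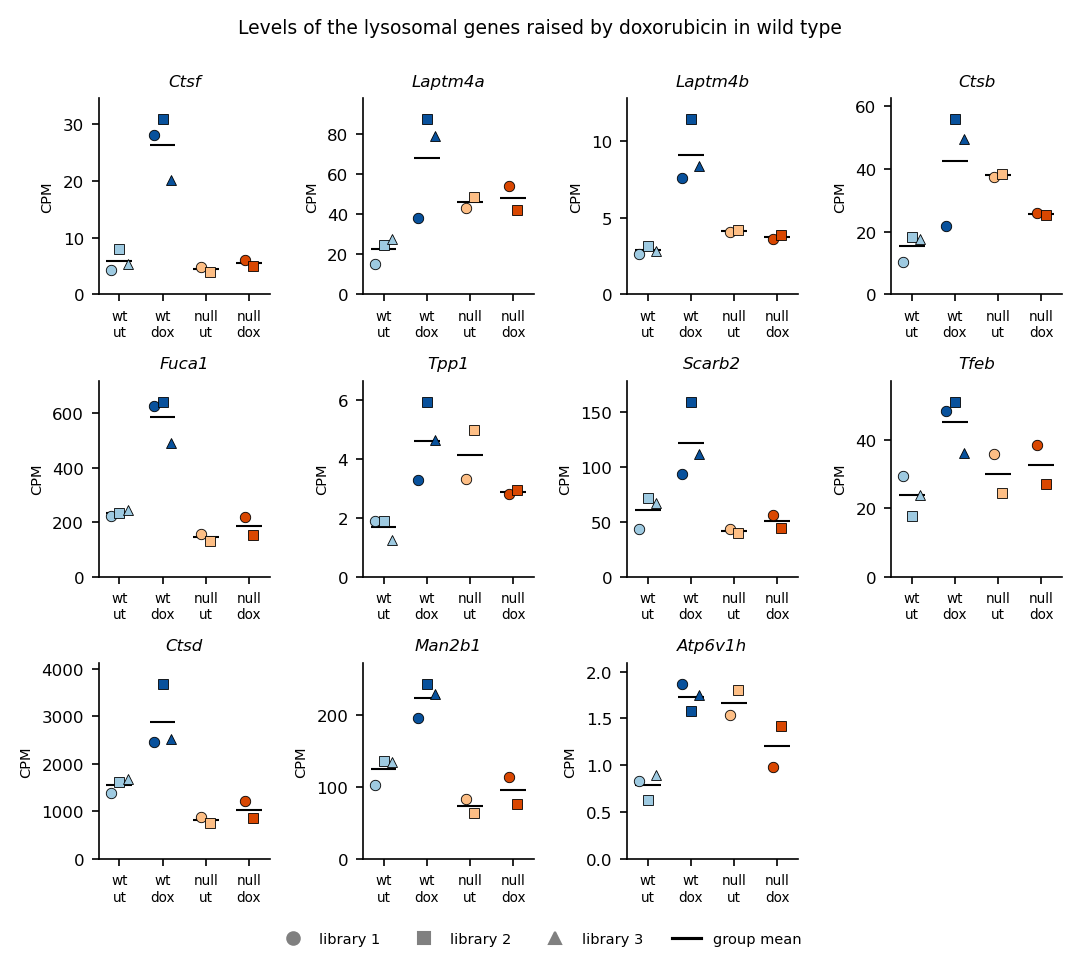
Scaled CPM of the 11 genes raised in wild type, 1 panel per gene with its own axis from 0, in wild-type (wt) and p53-null (null) libraries without (ut) and with doxorubicin (dox). Marker shapes give the library number and horizontal lines the group means, and in every panel the 3 treated wild-type libraries lie above the 3 untreated ones.

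Ctsf, Fuca1 and Laptm4b passed under every other setting run, 23 for each. Laptm4a passed without each single library except treated wild-type library 2 (adjusted p = 0.0523), and Tpp1, Ctsd, Man2b1, Ctsb and Scarb2 were each lost without any of 4 to 9 single libraries. Atp6v1h was lost without any 1 of the 10 and Tfeb without any but untreated library 1 and treated library 3 of wild type. The count of 11 became 6, 4 and 4 without untreated wild-type libraries 1, 2 and 3, and 9, 3 and 6 without treated ones. The share of all tested genes called in either direction was 13.1%, 6.39% and 6.52% without the untreated libraries. Without the treated ones it was 8.72%, 10% and 12.1%, so several of these counts were near that share. The share takes both directions together, and the share called higher alone was not set beside these counts. With all 10 libraries that share was 12.6%, and the share called higher alone was 8.03%. The count was 7 without any 1 of the 4 p53-null libraries and 3 with the wild-type groups fitted alone. The shares called in either direction were then 9.24% to 11.1% and 6.52%.

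Wild-type libraries with the same number deviated together. A fit that blocked on this pairing called 12 of the 45 genes, while calling 23.3% of all tested genes in either direction. The 11 genes above were all among them, and the twelfth was Ppt1, which encodes a thioesterase that strips palmitate from proteins. Ppt1 stood at 7.74, 12.9 and 7.86 CPM untreated and 9.81, 22.4 and 13.9 CPM treated, rising in each pair although the groups overlapped. In that fit its log2 fold was 0.63 (SE 0.19, adjusted p = 0.0473), and without the block it did not pass. Ppt1 overlaps Cap1 in the genome, and without the strand of the reads these genes cannot be separated. Altogether 22 of the 45 genes were higher in all 3 wild-type pairs and 3 were lower in all 3, against 30.9% and 24.7% of all tested genes.

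Markers of macrophages, cells rich in lysosomes, gave reads in these cultures. The summed level of 19 macrophage markers ran from 106 to 595 CPM in untreated and 50.1 to 266 CPM in treated wild-type libraries, and from 92.7 to 134 CPM in p53-null libraries. Of the 15 that were tested, none was called higher or lower with doxorubicin in wild type, and their median log2 fold was -1.06. Csf1r, the receptor for the macrophage growth factor, stood at 17.3, 83 and 107 CPM untreated and 7.94, 18.5 and 43.4 CPM treated. Emr1, encoding the F4/80 antigen, was at 0 in all untreated wild-type libraries and at most 0.465 CPM elsewhere, and Ptprc, encoding CD45, was at most 0.359 CPM. The part of these cells in the lysosomal values was not tested.

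In p53-null cells no lysosomal gene passed in either direction at an adjusted p of 0.05, and neither did any of the 11177 tested genes (0%). At an unadjusted p of 0.05, 4 of the 45 passed, against 11.2% of all tested genes, and limma-voom also called none of the 45. The smallest adjusted p was 0.388. The median log2 fold of the 45 was 0.25, against -0.08 for all tested genes. As in wild type, 31 of the 45 were above 0, here against 44.7% of all tested genes. Treated libraries lay above untreated ones for 15 and below for 10, shares to be read against 25.3% and 28.4% of all tested genes.

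The 4 genes at an unadjusted p under 0.05, fewer than the share of all genes would give in 45, were Psap, Gm2a, Npc2 and Smpd1 of the 8 lipid genes. The other 4 lipid genes had log2 folds below 0, at -0.20 for Asah1, -0.23 for Lipa, -0.47 for Ppt1 and -0.87 for Npc1. Psap, encoding the precursor of the saposins that present sphingolipids to their hydrolases, stood at 551 and 526 CPM untreated and 891 and 741 CPM treated. The change was 0.59 log2 (SE 0.22, 2 libraries in each group, adjusted p = 0.388), and the groups did not overlap. Gm2a, encoding the activator of GM2 ganglioside breakdown, had a log2 fold of 0.63, Npc2, encoding a soluble cholesterol carrier, 0.51, and Smpd1, encoding acid sphingomyelinase, 0.49. Their adjusted p ran up to 0.434. In wild type the same 4 genes had log2 folds of 0.12, 0.51, 0.04 and 0.19 in that order, none past the threshold.

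Members that rose in wild type showed small values of either sign here. Ctsf stood at 4.9 and 4 CPM untreated and 6.06 and 4.97 CPM treated, which is 0.28 on the log2 scale (SE 0.36, adjusted p = 0.794). Fuca1 stood at 157 and 130 CPM untreated and 217 and 152 CPM treated, with overlapping groups and a log2 fold of 0.34 (SE 0.24, adjusted p = 0.604). Ctsd stood at 884 and 752 CPM untreated and 1214 and 856 CPM treated, again overlapping, with a log2 fold of 0.32 (SE 0.26, adjusted p = 0.671). Ctsb instead stood at 37.6 and 38.3 CPM untreated and 25.8 and 25.3 CPM treated, a log2 fold of -0.56 (SE 0.43, adjusted p = 0.651).

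Among the remaining genes followed throughout, Lamp1 had the largest p53-null value. It stood at 32.2 and 71.8 CPM untreated and 84.8 and 90.4 CPM treated, with no overlap but an untreated pair far apart, and a log2 fold of 0.86 (SE 0.57, adjusted p = 0.596). Mcoln1 stood at 41.8 and 22.3 CPM untreated and 49.3 and 33.3 CPM treated, with overlapping groups and a log2 fold of 0.40 (SE 0.37, adjusted p = 0.702). Tfeb, Tfe3 and Mitf had log2 folds of 0.12 (SE 0.33), 0.03 (SE 0.22) and -0.31 (SE 0.33), with adjusted p of 0.919, 0.968 and 0.76.

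The difference of the responses, wild type minus p53-null, was past the threshold for none of the 45 genes, against 1.89% of all tested genes called higher and 0.447% called lower. At an unadjusted p of 0.05 there were 9, against 21.1% of all tested genes, and limma-voom called none. The difference went with level over all tested genes. Its median was 0.48 at an average log2 level under 3, -0.15 from 3 to 6 and -0.24 at 6 or more. The smallest adjusted p of the 45 was 0.0642, for Laptm4b, whose responses differed by 1.63 log2 (SE 0.40). Ctsf differed by 1.82 (SE 0.46, adjusted p = 0.0699), Tpp1 by 1.65 (SE 0.47, adjusted p = 0.0955), Ctsb by 1.93 (SE 0.56, adjusted p = 0.0967) and Fuca1 by 0.97 (SE 0.31, adjusted p = 0.122). A response that passed in wild type and not in p53-null cells is therefore not shown to differ between genotypes for these genes in the fit without pairs.

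Blocking on the replicate numbers changed this result. With the block in wild type only, where the numbers pair the libraries, 4 genes had a larger response in wild type: Ctsb (SE 0.29, adjusted p = 0.00841), Laptm4a (SE 0.30, adjusted p = 0.0237), Ctsf (SE 0.38, adjusted p = 0.0253) and Laptm4b (SE 0.35, adjusted p = 0.0286). With the block in both genotypes there were 6, adding Tpp1 (adjusted p = 0.0486) and Fuca1 (adjusted p = 0.0497). These fits called 7.74% and 9.63% of all tested genes in either direction. Among the tested lysosomal genes, the count of 4 was therefore near the 7.74% share, and the count of 6 was not far above the 9.63% share. The shares called higher alone were not set beside these counts. Without a block, leaving out treated wild-type library 1, where Ctsb rose least, gave 1 gene, Ctsb.

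Of the named panel, the difference was 0.54 for Ctsd (SE 0.34, adjusted p = 0.381), 0.81 for Tfeb (SE 0.43, adjusted p = 0.298) and 0.06 for Mcoln1 (SE 0.47, adjusted p = 0.949). Lamp1 differed by -0.79 (SE 0.74, adjusted p = 0.55), Tfe3 by -0.08 (SE 0.29, adjusted p = 0.898) and Mitf by 0.14 (SE 0.43, adjusted p = 0.872). By direction alone, 7 genes were higher with doxorubicin in all 3 wild-type pairs and lower in both p53-null pairs: Ctsb, Tpp1, Ids, Asah1, Ppt1, Laptm4b and Atp6v1h. Over all tested genes 13.3% had that pattern, so the count was near the background. Neu1, encoding sialidase, and Idua, encoding alpha-iduronidase, were lower in all 3 wild-type pairs and higher in both p53-null pairs, a pattern of 8.8% of all tested genes. A further 12 were higher in all 5 pairs, among them Ctsf, Ctsd, Fuca1, Man2b1, Scarb2 and Tfeb of the raised genes, against 9.98% of all tested genes. The p53-null libraries are matched here by their number alone.

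**Figure D3:**
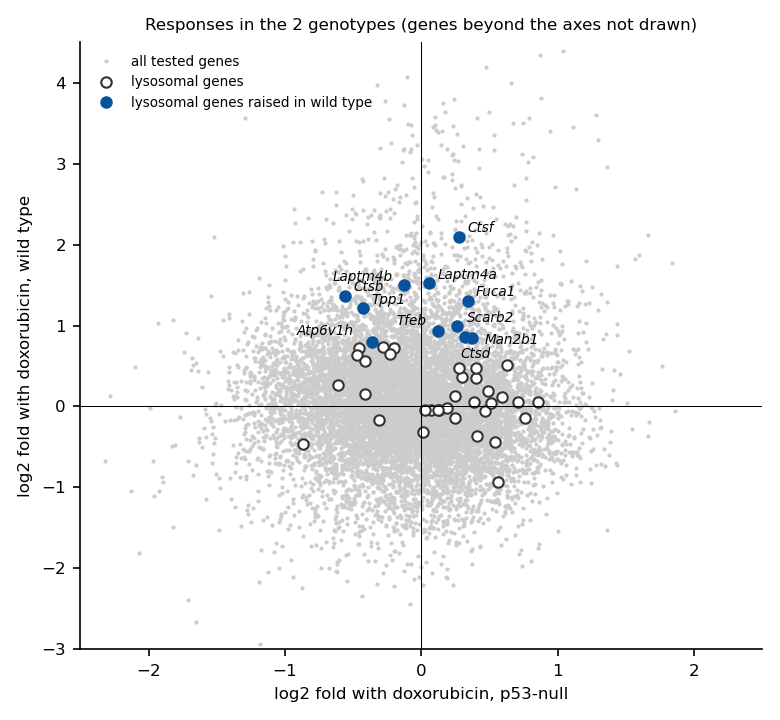
Log2 fold with doxorubicin in p53-null cells (x axis) and wild type (y axis) for all tested genes (grey) and the 45 lysosomal genes. The 11 raised in wild type (filled) lie between 0.80 and 2.10 on the y axis and between -0.56 (Ctsb) and 0.37 (Man2b1) on the x axis.

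Before treatment the 2 genotypes differed at 15 of the 45 lysosomal genes, 9 higher and 6 lower in wild type. Over all tested genes 33.1% were called, 12.7% higher and 20.4% lower in untreated wild type. The total of 15 was therefore near the share of all tested genes. Higher in wild type were the protease genes Ctsd and Ctsz, the glycosidase genes Neu1, Man2b1 and Fuca1, the lipid genes Psap, Smpd1 and Npc2 and the pump accessory gene Atp6ap1. Lower were Ctsb, Tpp1, Gla, Ppt1, Atp6v1h and Mitf. The median log2 fold of the 45, wild type over p53-null, was 0.51, against -0.09 for all tested genes. Wild-type libraries lay entirely above p53-null ones for 23 and below for 13, against 28.8% and 36.1% of all tested genes.

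Npc2 stood at 552, 676 and 731 CPM in untreated wild-type libraries against 230 and 241 CPM without p53, a wide separation. The genotypes differed by 1.46 log2 (SE 0.20, 3 libraries against 2, adjusted p = 0.00204). Psap stood at 1008, 1268 and 1225 CPM against 551 and 526 CPM, with no overlap and a log2 fold of 1.11 (SE 0.20, adjusted p = 0.00518). Smpd1 stood at 152, 151 and 160 CPM against 81 and 79.5 CPM, with little spread inside each group and a log2 fold of 0.94 (SE 0.19, adjusted p = 0.00839). Atp6ap1, encoding an accessory subunit of the proton pump, stood at 185, 113 and 273 CPM against 22.2 and 19.3 CPM. It had the largest fold of the set, 3.08 log2 (SE 0.69, adjusted p = 0.0108), and its wild-type libraries were spread apart.

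Ctsd, Ctsz, Man2b1 and Fuca1 had log2 folds of 0.93 (SE 0.24, adjusted p = 0.0177), 0.91 (SE 0.25, adjusted p = 0.0234), 0.77 (SE 0.24, adjusted p = 0.0374) and 0.71 (SE 0.22, adjusted p = 0.0319). Neu1 stood at 17.3, 25.1 and 27.9 CPM against 10.1 and 11.4 CPM, a log2 fold of 1.06 (SE 0.28, adjusted p = 0.0181). No wild-type library overlapped a p53-null one for these 5 genes. Of the other panel genes, Ctsf had a log2 fold of 0.32 (SE 0.33, adjusted p = 0.464), Lamp1 of -0.26 (SE 0.52, adjusted p = 0.723), Mcoln1 of -0.42 (SE 0.33, adjusted p = 0.344), Tfeb of -0.34 (SE 0.30, adjusted p = 0.396) and Tfe3 of 0.44 (SE 0.20, adjusted p = 0.122).

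Among the genes lower in wild type, Ppt1 stood at 7.74, 12.9 and 7.86 CPM against 31.9 and 34.8 CPM where p53 was absent. Its groups did not overlap and the log2 fold was -1.80 (SE 0.36, adjusted p = 0.00734). Ppt1 overlaps Cap1 in the genome, and Ctsz, higher in wild type, overlaps Nelfcd, so the limit given for Ctsb holds for them too. Ctsb stood at 10.4, 18.2 and 17.5 CPM against 37.6 and 38.3 CPM, a log2 fold of -1.32 (SE 0.39, adjusted p = 0.03). Gla, encoding alpha-galactosidase, Tpp1 and Atp6v1h had log2 folds of -1.23 (SE 0.37, adjusted p = 0.0301), -1.09 (SE 0.33, adjusted p = 0.0331) and -0.76 (SE 0.26, adjusted p = 0.0469). Mitf rested on 8 wild-type and 49 p53-null reads, with a log2 fold of -1.06 (SE 0.30, adjusted p = 0.0255). Of these 6 genes, Ctsb, Tpp1 and Atp6v1h were also among those that rose with doxorubicin in wild type, but both comparisons use the same 3 untreated wild-type libraries and are not independent. Their treated wild-type means of 42.5, 4.62 and 1.73 CPM stood beside untreated p53-null means of 37.9, 4.14 and 1.67 CPM.

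Direction in this comparison went with level across the whole data set. Of all tested genes with an average log2 level under 3, 28% were called lower in wild type and 4.18% higher, with a median log2 fold of -0.55. With an average of 6 or more, 29.8% were called higher and 6.16% lower, with a median of 0.40. The lysosomal genes followed that order, with 4 of 11 lower and none higher in the low range and 8 of 14 higher and none lower in the high range. Depth, which was larger in every p53-null library, and genotype cannot be told apart here.

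The split also moved with the scaling. It was 9 higher and 6 lower as reported, 4 higher and 9 lower with library size alone, 15 and 5 with median-of-ratios scaling, 10 and 4 with upper quartile scaling, and 13 and 4 on the deposited values. Library size alone moved the median of all tested genes to -0.43. The count fell to 6 and 5 without untreated wild-type libraries 2 and 3, to 1 without either untreated p53-null library, and rose to 24 without treated wild-type library 2. The shares of all tested genes were 20.1% and 15.7%, 3.79% and 4.45%, and 37.7% in these settings. Npc2 was the gene that passed in all of these settings. Of the macrophage markers, 2 were higher and 1 lower in untreated wild type, with a median log2 fold of 0.86.

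**Figure D4:**
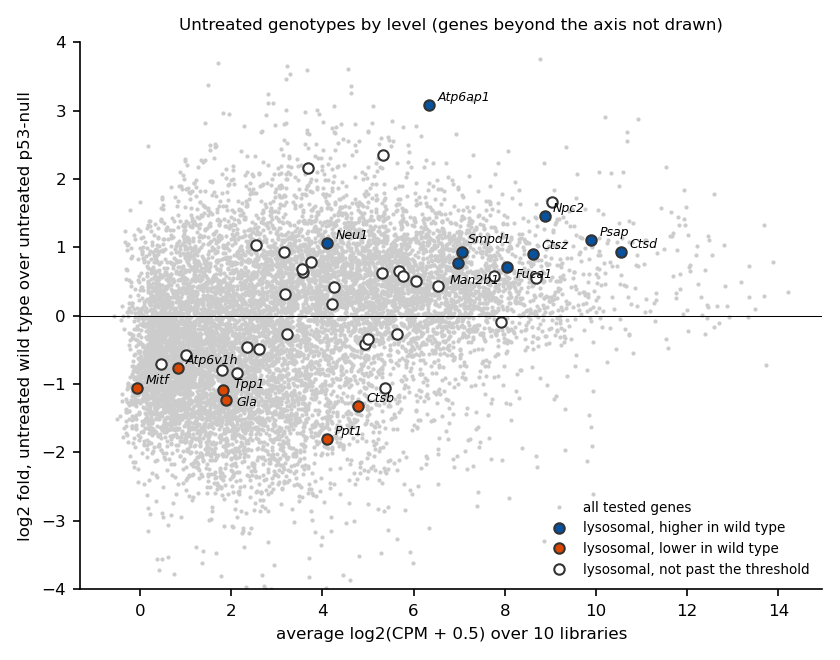
Log2 fold of untreated wild type over untreated p53-null cells (y axis) against the average log2(CPM + 0.5) over 10 libraries (x axis), for all tested genes (grey) and the 45 lysosomal genes. The 9 lysosomal genes higher in wild type have averages above 4 and the 6 lower ones have averages below 5.

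Under doxorubicin 8 of the 45 lysosomal genes were higher in wild type than in p53-null cells and none was lower. Over all tested genes 6.82% were higher and 5.25% lower. The 8 were Ctsf, Ctsd, Fuca1, Man2b1, Npc2, Scarb2, Laptm4b and Atp6ap1, and 6 of them were among the genes raised in wild type, all but Npc2 and Atp6ap1. The median log2 fold was 0.46, against -0.03 for all tested genes. Above 0 were 36 of the 45, against 48.3% of all tested genes. This comparison shares its treated wild-type libraries with the response and is not independent of it.

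Ctsf stood at 28.1, 30.9 and 20.2 CPM in treated wild type against 6.06 and 4.97 CPM in treated p53-null cells, 2.14 higher on the log2 scale (SE 0.33, 3 libraries against 2, adjusted p = 0.00212). Fuca1 stood at 627, 642 and 489 CPM against 217 and 152 CPM, with a log2 fold of 1.68 (SE 0.22, adjusted p = 0.000739). Ctsd stood at 2456, 3686 and 2521 CPM against 1214 and 856 CPM, with a log2 fold of 1.48 (SE 0.24, adjusted p = 0.00325). For each of these 3 genes the lowest wild-type library was well above the highest p53-null one. Man2b1, Scarb2 and Laptm4b had log2 folds of 1.24 (SE 0.24, adjusted p = 0.00894), 1.24 (SE 0.29, adjusted p = 0.0213) and 1.17 (SE 0.28, adjusted p = 0.0244). Npc2 and Atp6ap1, higher already before treatment, had log2 folds of 0.98 (SE 0.20, adjusted p = 0.0121) and 2.74 (SE 0.69, adjusted p = 0.0291).

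Lamp1 ran the other way, at 37.7, 64.2 and 30.7 CPM in treated wild type against 84.8 and 90.4 CPM in treated p53-null cells. Its groups did not overlap, but the value of -1.05 log2 (SE 0.52) missed the threshold, with an adjusted p of 0.217. Mcoln1, Tfeb, Tfe3 and Mitf had log2 folds of -0.36 (SE 0.33, adjusted p = 0.518), 0.47 (SE 0.30, adjusted p = 0.342), 0.36 (SE 0.20, adjusted p = 0.28) and -0.93 (SE 0.30, adjusted p = 0.0769). The count of 8 was 3 without treated p53-null library 2, 5 without library 1, and 4 with only these groups in the fit. The shares of all tested genes called in either direction were 4.21%, 7.62% and 5.78%. With library size alone 6 were higher and 1 lower. Fuca1 passed in each of the 21 settings run.

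Several lysosomal genes were uneven between wild-type libraries of 1 group, in treated cells at a share near that of all tested genes. Gusb, encoding beta-glucuronidase, stood at 25, 5.58 and 121 CPM in treated wild-type libraries 1, 2 and 3, a 21.7-fold range, and at 20.9, 15.9 and 38 CPM in untreated ones. Atp6v0d1, a subunit of the membrane sector of the proton pump, stood at 54.5, 20 and 243 CPM treated, a 12.2-fold range. Npc1, encoding the cholesterol exporter of the lysosomal membrane, stood at 23.1, 4.04 and 27.3 CPM untreated and 9.62, 3.16 and 29.9 CPM treated. In all 3 genes library 2 was the lowest and library 3 the highest of the treated libraries.

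Cd63, encoding a tetraspanin of late endosomes, and Atp6ap1 had the same order, at 611, 149 and 1278 CPM and 173, 67.2 and 543 CPM in treated libraries 1, 2 and 3. Among genes with a mean of 10 CPM or more, a range of 3-fold or more was seen for 5 of 33 lysosomal genes in treated wild type, against 14.7% of 5258 tested genes. The median range in treated wild type was 1.61-fold for the 33 and 1.6-fold for the 5258, so this unevenness was not particular to lysosomal genes. In untreated wild type a range of 3-fold or more was seen for 4 of 33, against 7.23%. In the p53-null groups it was seen for 0 of 33, against 0.152% untreated and 0.856% treated. The p53-null ranges cover 2 libraries and not 3, which makes them smaller by construction. For these genes the SE was large, 0.85 for Gusb and 0.81 for Npc1 in the wild-type response, and a change of moderate size would not have been detectable.

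**Figure D5:**
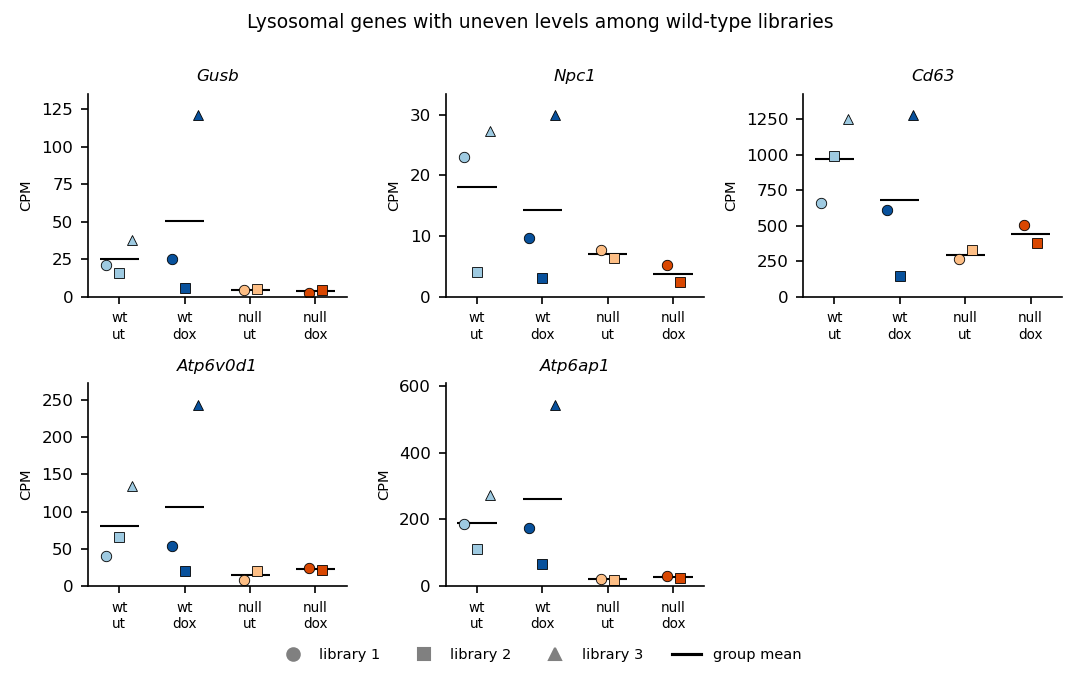
Scaled CPM of 5 lysosomal genes with uneven wild-type levels, 1 panel per gene with its own axis from 0, by group (wt, wild type; null, p53-null; ut, untreated; dox, doxorubicin). Shapes give library numbers and lines group means, and treated wild-type library 3 (triangle) is the highest and library 2 (square) the lowest treated wild-type point in every panel, as in Gusb at 121 and 5.58 CPM.

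Genes with the E-box were then set beside those without it, as a description. Promoter windows were at hand for 8 of the 11 raised genes, and those of Ctsd and Ctsf held an E-box, 2 of 8. Among the other 31 genes with a window, 12 held one. In wild type, 9 of 14 tested E-box genes and 17 of 25 without had a fold above 0, with medians of 0.10 and 0.19. Over all tested genes the shares above 0 were 50.8% with an E-box and 53.2% without. For p53-null cells the counts were 13 of 14 and 17 of 25, with medians of 0.29 and 0.19, against 46% of all 798 tested genes with an E-box and 44.6% of the 6981 without. The first count was 12 with library size alone. None of these p53-null folds passed the threshold, and Lamp1, with 4 E-boxes in its window, had the largest of them. Folds in p53-null cells also went with level. At average log2 levels under 3, 3 to 6 and 6 or more, medians of all tested genes were -0.25, 0.08 and 0.15. Those of the lysosomal genes were -0.31, 0.26 and 0.33. Genes with and without an E-box were not matched for level, and the part of level in these counts was not tested.

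The rest of the organelle was covered by a list of 97 other lysosome genes, of which 94 were found and 84 were tested. In wild type 11 of these rose with doxorubicin and 1 fell, 12 of 84 beside 12.6% of all tested genes called in this comparison. Hyal1, encoding a lysosomal hyaluronidase, rose from 4.18 to 86.7 CPM, a log2 fold of 4.20 (SE 0.30, adjusted p = 3.52e-05). Abcb9, encoding a lysosomal peptide transporter, rose from 1.94 to 19.3 CPM by 3.09 log2 (SE 0.34). Man2b2 (1.61), Atp13a2 (1.59), Tcirg1 (1.38) and Flcn (1.28) also rose on the log2 scale. Flcn was near the floor, with means of 0.252 CPM untreated and 1.32 CPM treated. Atp13a2 encodes a lysosomal polyamine transporter, Tcirg1 a proton pump subunit, and Flcn folliculin, a regulator of TFEB and TFE3. Vps41, a tethering subunit that guides vesicles to lysosomes, rose by 1.77, from low means of 0.727 CPM untreated to 4.02 CPM treated. Slc11a2, an iron transporter gene, had a log2 fold of -0.92 (SE 0.23, adjusted p = 0.0277).

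In p53-null cells none of the 84 passed, and 11 did at an unadjusted p of 0.05, beside 11.2% of all tested genes. Hyal1 was the gene of this list whose responses differed between genotypes, by 3.72 log2 (SE 0.48, adjusted p = 0.00449), from 6.39 to 9.3 CPM in p53-null cells. In untreated cells 12 were higher and 12 lower in wild type, 24 of 84 beside 33.1% of all tested genes, with Scpep1 (-2.40), Ctsc (-1.62), Tmem55a (-2.35) and Atp6v0a1 (1.19) the 4 of smallest p by log2 fold of wild type over p53-null. Under doxorubicin 6 were higher and 2 lower, 8 of 84 beside 12.1% of all tested genes, led by Hyal1 (3.14), Atp13a2 (2.34), Abcb9 (2.71) and Tcirg1 (1.59).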

How the data were processed

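The deposited RNA values, 1 per gene and library, are on a variance-stabilised scale close to log2 that the authors made; per the submitters' processing notes DESeq and build mm9 were used, while for the aligner, the strand and the annotation nothing is given in the sources used here. Whole reads were recovered by walking along the curve that all libraries share: past the first 250 reads, 22122 values were placed, 99.90% of them no more than 0.01 from a whole number. The remaining 22, none under 143049 reads, were rounded. In simulated reads 100.0% were recovered. These are computed reads, so no count model was used. The p53 binding site list was not used here, because its positions are on another build than the gene table.

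Scaling used the trimmed mean of M values, trimming 30% of M and 5% of A, and log2(CPM + 0.5) was fitted with limma 3.58.1 (trend option, R 4.3.3), with 1 mean per group over 10 libraries. P-values are two-sided and adjusted by Benjamini-Hochberg over 11177 genes and called at 0.05. Because of the added 0.5 CPM, fold changes of low genes are understated. The fit was also run on simulated reads with the same spread setting for every gene and no pairs between libraries. The real libraries differ in both, so that run does not measure how the fit performs on them. Alternatives covered scaling, added CPM, filters, the deposited values, limma-voom, the libraries fitted and the replicate block.

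Replicate numbers come from the labels. Deviations from group means correlated by 0.581, 0.342 and 0.611 between wild-type libraries of the same number and by -0.018 to -0.504 otherwise, so the numbers pair these libraries. In p53-null cells the correlation was 0.385 with 2 pairs only.

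The members and lists were chosen with earlier results of these data known. Full statistics are given for members past the threshold in a comparison and, in each comparison, for Ctsf, Fuca1, Ctsd, Lamp1, Mcoln1, Tfeb, Tfe3 and Mitf; of other lysosome genes up to 8 by p are named in the wild-type response and up to 4 elsewhere. Ppt1, Psap, Gm2a, Smpd1, Npc2, Ctsb, Tpp1, Laptm4a, Laptm4b, Ids, Asah1, Lipa, Glb1, Neu1, Idua, Atp6v1h and the uneven genes are named beyond this rule in some comparisons, after their values were seen. Gene overlaps were read from GRCm38 spans: 21 members overlap another gene, 11 of them 1 listed in the files.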

Additional observations from a re-analysis of the deposited data

Results flagged for a closer look

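The doxorubicin responses of Hyal1, Cdkn1a and Mdm2 differed between genotypes in the test of the difference itself. The wild-type minus p53-null value was 3.72 log2 for Hyal1, 2.05 for Cdkn1a (SE 0.29, adjusted p = 0.00707 by limma) and 2.67 for Mdm2, the gene of the ubiquitin ligase that degrades p53 (SE 0.40, adjusted p = 0.00896). No gene of the 45 was past the threshold in that test without a block.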

How the results depend on the processing

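Of 11 lysosomal genes called in treated wild type, upper quartile scaling gave 6, no filter 5, only the groups compared 3, leaving out both p53-null libraries numbered 2 gave 3, and leaving out single libraries 3 to 9. The difference of responses (0 called) gave 1 with a filter of 5 CPM, 6 with the replicate block and 4 with the replicate block in wild type only, an alternative added after seeing the data, and 0 to 1 without single libraries. The untreated count of 15 became 1 without both p53-null libraries numbered 2 and 1 to 24 without single libraries; the treated count of 8 became 4 with only the groups compared, 1 without both p53-null libraries numbered 2 and 3 to 9 without single libraries. The p53-null response gave 0 lysosomal genes in every setting run, and no called gene changed sign.

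Counts of other lysosome genes were varied after seeing the data. In treated wild type 12 became 6 with only the groups compared, 21 with the replicate block, 19 with it in wild type only, 6 without both p53-null libraries numbered 2 and 6 to 10 without single libraries. The difference (1) became 2 with 2 CPM added, 3 with the 5 CPM filter, 9 and 6 with the blocks, 0 without both p53-null libraries numbered 2 and 1 to 2 without single libraries. The untreated count of 24 became 13 with the 5 CPM filter, 3 without both p53-null libraries numbered 2 and 4 to 32 without single libraries. The treated count of 8 became 4 with only the groups compared, 2 without both p53-null libraries numbered 2 and 4 to 11 without single libraries. The cause of these shifts was not tested. The block was not run between genotypes, because wild-type and p53-null libraries come from different cells. Apart from Ppt1 it changed no other member's call in the wild-type response. With 2 libraries per p53-null group and 9768161 reads in the shallowest library, small changes may have been missed, especially in genes near 1 CPM.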
